A study of Mus musculus with 32 samples.

Results

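The distal convoluted tubule is the short stretch of the nephron between the thick ascending limb and the connecting tubule. Its cells take up sodium and chloride through the thiazide-sensitive cotransporter NCC and take up magnesium through TRPM6 channels, and this is the last site at which the kidney sets how much magnesium is lost in urine. Low blood magnesium is a known side effect of cisplatin. Here 10 genes linked to that segment or to magnesium handling were followed by their symbols among the 54532 genes of the count table: Slc12a3, Trpm6, Trpm7, Pvalb, Cnnm2, Slc41a3, Wnk1, Wnk4, Klhl3 and Kcnj16. Not all are restricted to the segment. Trpm7 is found in most cells, so its whole-kidney level is not that of the segment. Each symbol had 1 row, and all 10 passed the filter on low counts, as 18220 genes did over all 32 libraries.

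The libraries came from whole kidney of wild-type C57BL/6 mice, 6 to 8 weeks old, taken on Day 0 or on Days 2, 3 or 5 after 1 cisplatin injection of 20 mg/kg into the peritoneum to injure the kidney. Male and female mice formed separate groups, which gave 8 groups of 4 mice. Day 0 stood for mice before injury in the study's design, although the labels give no treatment for the Day 0 males and cisplatin for the Day 0 females. No group received a vehicle injection on the later days, so day and injection cannot be told apart. In whole tissue, fewer cells of a type and less RNA per cell cannot be told apart.

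On GRCm38 the genes lie at chr8:94329201-94366214 (Slc12a3, ENSMUSG00000031766), chr19:18749983-18892510 (Trpm6, ENSMUSG00000024727), chr2:126791565-126876230 (Trpm7, ENSMUSG00000027365), chr15:78191114-78206400 (Pvalb, ENSMUSG00000005716) and chr19:46761596-46878795 (Cnnm2, ENSMUSG00000064105). The others lie at chr6:90604725-90646412 (Slc41a3, ENSMUSG00000030089), chr6:119923969-120038672 (Wnk1, ENSMUSG00000045962), chr11:101260567-101277409 (Wnk4, ENSMUSG00000035112), chr13:58000228-58113592 (Klhl3, ENSMUSG00000014164) and chr11:110968033-111027968 (Kcnj16, ENSMUSG00000051497).

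Libraries held 16502107 to 35961325 counts. Levels are given as CPM, counts scaled to a common library size by the trimmed mean of M-values. Some properties of the libraries moved with the days and stand beside the results they touch. Genes of the mitochondrial genome took 4.49% to 23.97% of counts at Day 0, 4.87% to 14.03% on Days 2 and 3, 42.5% to 79.8% in males at Day 5 and 9.30% to 77.9% in females at Day 5. Short genes (under 1500 bases) stood high against long genes (over 5000 bases) in part of the Day 0 libraries: the difference of their median log2 deviations was -0.28 to 1.34 at Day 0, and -0.64 to 0.10 on Days 2 and 3. It was above 1 in 3 libraries, male Day 0 mouse 3 and female Day 0 mice 2 and 3. Xist, the RNA of the inactive X chromosome, had 4153 counts in the library labelled male Day 5 mouse 1, beside 387 counts of Y-linked genes, against 59 to 260 Xist counts in the other male Day 5 libraries. Its label is kept here. At Day 0 the female libraries held 5 to 221 counts of Y-linked genes, against 0 in every later female library, and male mouse 4 held 242 Xist counts.

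The promoters of 4 of the genes are shown because these genes had the largest changes of the 10 at Day 3: Slc12a3, Trpm6 and Pvalb were lower after cisplatin and Trpm7 was higher. Each sequence runs from 250 bases before to 50 bases after a start site, 5′ to 3′ on the gene's strand, from RefSeq (GRCm38.p6). Capitals mark the letters of an AP-2 site (GCCNNNGGC, which reads the same on both strands) and of a TATA box (TATAAA, both strands), and Tfap2b, one of the AP-2 factors, is a known regulator of this segment.
Slc12a3 (chr8:94328958-94329257, + strand): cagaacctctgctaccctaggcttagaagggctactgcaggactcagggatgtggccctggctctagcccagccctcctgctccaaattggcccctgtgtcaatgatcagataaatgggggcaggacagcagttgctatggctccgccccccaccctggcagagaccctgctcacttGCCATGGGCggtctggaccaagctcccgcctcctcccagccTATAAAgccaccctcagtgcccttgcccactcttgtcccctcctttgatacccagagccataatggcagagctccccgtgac
Trpm6 (chr19:18749480-18749779, + strand): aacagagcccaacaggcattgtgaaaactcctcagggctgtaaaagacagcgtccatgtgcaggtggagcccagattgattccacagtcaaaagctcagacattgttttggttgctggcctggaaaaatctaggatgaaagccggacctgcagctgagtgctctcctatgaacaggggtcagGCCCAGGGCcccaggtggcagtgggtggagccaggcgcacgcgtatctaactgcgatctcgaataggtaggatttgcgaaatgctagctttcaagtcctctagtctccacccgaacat
Pvalb (chr15:78206351-78206650, - strand): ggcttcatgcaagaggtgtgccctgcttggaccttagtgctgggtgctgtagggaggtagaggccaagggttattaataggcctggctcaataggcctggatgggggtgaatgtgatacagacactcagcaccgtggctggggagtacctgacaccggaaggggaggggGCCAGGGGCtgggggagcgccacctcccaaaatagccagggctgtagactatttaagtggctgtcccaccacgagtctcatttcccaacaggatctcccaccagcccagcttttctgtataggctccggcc
Trpm7 (chr2:126876212-126876511, - strand): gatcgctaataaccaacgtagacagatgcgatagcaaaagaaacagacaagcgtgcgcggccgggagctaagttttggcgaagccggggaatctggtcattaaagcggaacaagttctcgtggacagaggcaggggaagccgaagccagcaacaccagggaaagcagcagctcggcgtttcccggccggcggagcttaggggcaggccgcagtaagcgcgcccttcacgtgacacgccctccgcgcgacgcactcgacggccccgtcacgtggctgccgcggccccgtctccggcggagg
The AP-2 letters began at position -73 from the start in Slc12a3, at -68 in Trpm6 and at -81 in Pvalb, whose second entry, not shown, held them at -164. Slc12a3 also held a TATA box, at -32, and the Trpm7 promoter held neither motif. Of all 32851 promoters in the table, 16.6% held the AP-2 letters and 13.6% held the TATA letters. A match of letters is a description of the sequence and not evidence that a factor binds there.

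All 10 genes had at least 1 such promoter entry, 14 in all. Among the others, the AP-2 letters were in the promoters of Slc41a3 (-221), Wnk1 (-65), Wnk4 (-167 and -38) and 1 of the entries of Kcnj16 (-117), and in neither Klhl3 nor Cnnm2.

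At Day 0 the 10 genes covered a wide range of levels per length. In FPKM, counts divided by gene length and library size as the authors deposited them, Kcnj16, a potassium channel subunit of the basolateral membrane, had a mean of 95.7 ± 26.6 (SD, n = 8 mice). Pvalb, which encodes the calcium-binding protein parvalbumin found in the first part of the segment, followed at 84.9 ± 77.3, Wnk4 at 47.7 ± 17.3 and Slc12a3 at 43.2 ± 9.98. Neighbours among these 4 overlapped over the mice. The mean of Pvalb rests on the 3 short-gene libraries, at 129, 117 and 248 FPKM, since the other 5 mice were at 22.7 to 59.3, within a range like that of Slc12a3 (31.5 to 57.7 over all 8). Cnnm2 stood at 10.2 ± 1.5, Wnk1 at 9.49 ± 1.68, Klhl3 at 6.31 ± 1.90 and Trpm7 at 4.55 ± 1.59. The lowest were Trpm6 at 1.61 ± 0.41 and Slc41a3 at 1.13 ± 0.59. The step from Slc12a3 to Cnnm2, that from Wnk1 to Klhl3 and that from Trpm7 to Trpm6 held in 8 of 8 mice, while Cnnm2 was above Wnk1 in 6 of 8. The length behind the FPKM of Trpm6 was 6508 bases in the deposited table and 7719 bases of merged exons in GENCODE M21, and that of Cnnm2 was 3558 and 5167 bases, so the order of Cnnm2 and Wnk1 depends on the length used.

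The first question was which of the 10 genes changed in whole kidney at each day. Taking both sexes together, with sex as a covariate, 7 of the 10 genes differed from Day 0 at Day 3 by the quasi-likelihood F test of edgeR (Benjamini-Hochberg adjusted p under 0.05, over all genes). At that day 39.1% of all 17598 genes tested did so. Slc12a3, Trpm6, Pvalb, Cnnm2, Wnk4 and Klhl3 fell, a direction called in 22.6% of all genes, and Trpm7 rose, called in 16.5%. At Day 2, 2 of the 10 genes, Trpm6 and Pvalb, had fallen, against 27.8% of genes called in either direction and 16.5% called lower. At Day 5 none was called, against 18.6% of all genes, although 2 had an unadjusted p under 0.05 (5701 of 16907 over all genes), DESeq2 called 2 and limma voom called 1. Slc41a3 there was at 0.90 ± 0.35 (adjusted p = 0.077) and passed in 6 of 28 settings, among them DESeq2 (0.91, adjusted p = 0.036), limma voom (0.64, adjusted p = 0.041), the fit over all 8 groups (0.86, adjusted p = 0.020) and without male Day 0 mouse 4 (1.11, adjusted p = 0.037). The median log2 fold change of the 10 genes was -0.26 at Day 2, -0.46 at Day 3 and -0.08 at Day 5, and over all genes tested it was 0.02, 0.02 and 0.05.

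**Figure D1:**
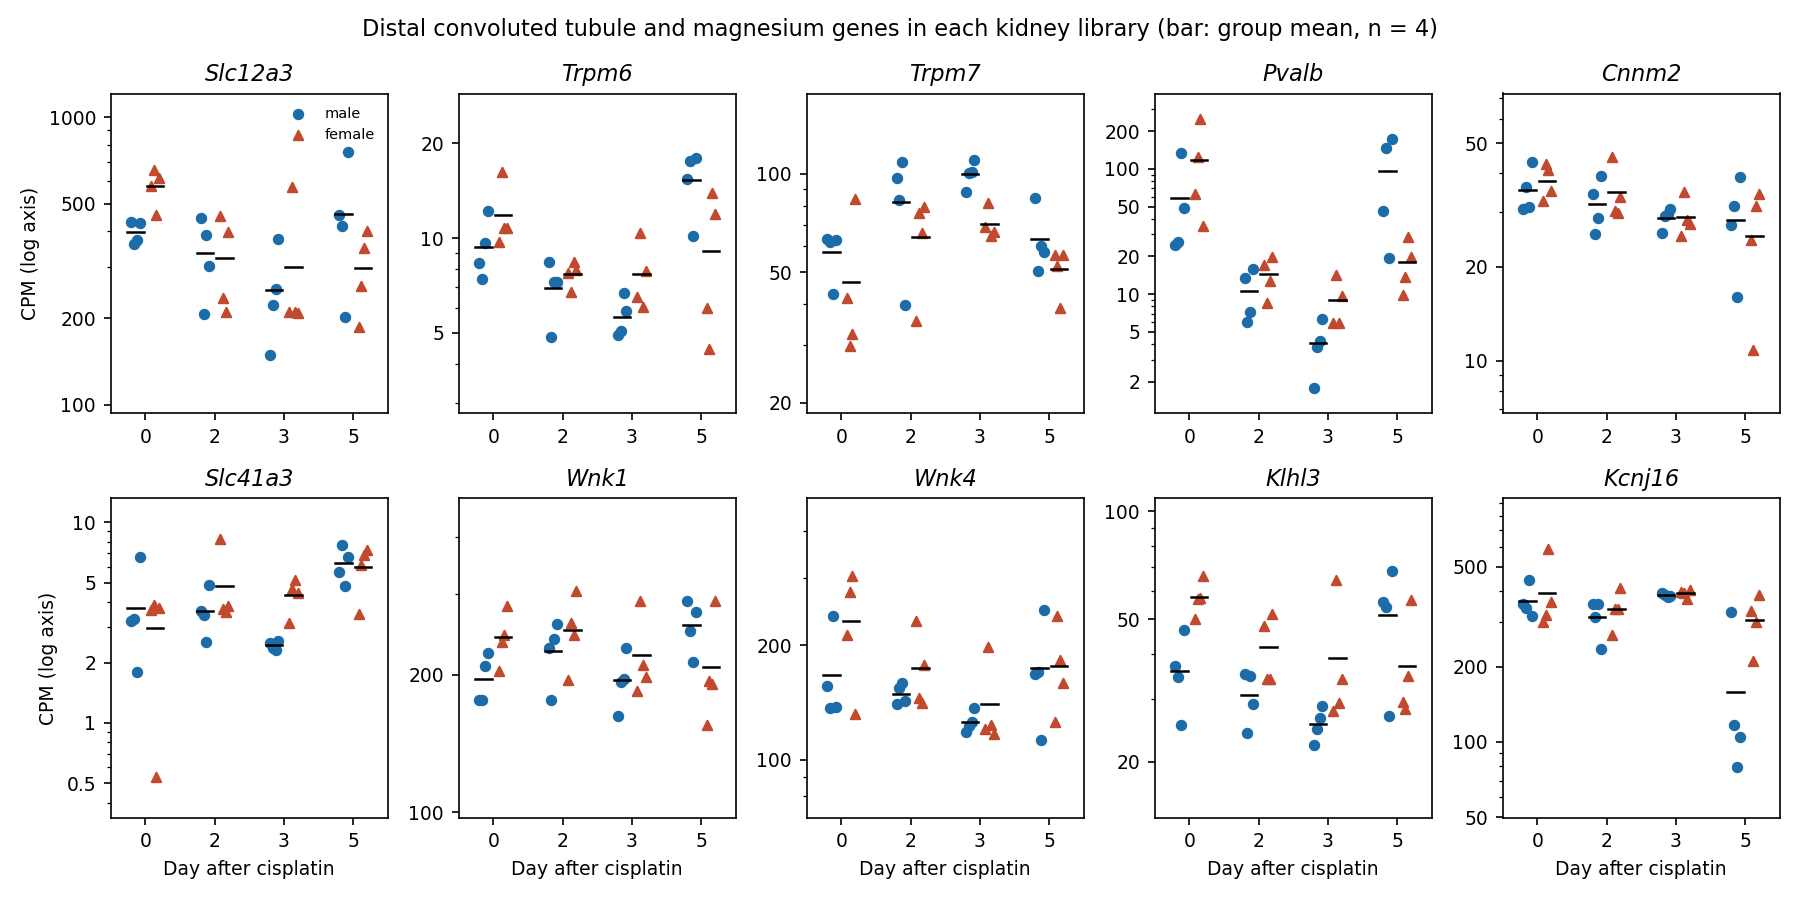
CPM (log axis) of each of the 10 genes in every library, by day after cisplatin. Circles are male mice, triangles female mice and bars the means of 4 mice. Pvalb is at 1.79 to 14.3 CPM at Day 3 and at 24.6 to 249.8 CPM at Day 0, and 3 of the 4 male Day 5 mice are low for Kcnj16.

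Pvalb moved most. In males it stood at 24.6, 25.9, 133 and 49.1 CPM at Day 0, at 13.4, 5.99, 7.23 and 16.0 at Day 2, and at 1.79, 3.82, 4.25 and 6.30 at Day 3. In females it stood at 63.3, 124, 249.8 and 34.9 CPM at Day 0, at 17.2, 8.46, 12.7 and 19.7 at Day 2, and at 5.93, 14.3, 5.85 and 9.66 at Day 3. Every Day 2 and Day 3 library of either sex was below every Day 0 library of that sex. The log2 fold change over both sexes was -2.73 ± 0.44 (SE, adjusted p = 0.0011) at Day 2 and -3.80 ± 0.46 (adjusted p = 0.00014) at Day 3, by edgeR. Pvalb was the 1 gene of the 10 called with a log2 fold change past 1.5 at either day, as were 4.87% of all genes at Day 2 and 6.46% at Day 3.

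Pvalb is also the shortest of the 10, at 1041 bases, and its highest Day 0 values, 133, 124 and 249.8 CPM, were those of the 3 libraries in which short genes stood above long genes by over 1 log2 unit. With those 3 left out, a choice made after the data were seen, the change was -1.71 ± 0.27 at Day 2 (adjusted p = 0.0020) and -2.79 ± 0.32 at Day 3 (adjusted p = 0.00023). With a length term fitted to each library as an offset, also added afterwards, it was -2.30 ± 0.40 (adjusted p = 0.0019) and -3.32 ± 0.44 (adjusted p = 0.00029). Skeletal muscle also makes parvalbumin. Its list of 8 genes summed to 1.90 to 8.28 CPM at Day 0 and to 2.41 to 19.4 CPM at Day 3, and its genes were at 0 in 0 (Actn3 and Mylpf), 2 (Acta1), 3 (Myh1), 5 (Tnnt3), 13 (Ckm) and 27 (Myh2 and Myh4) of the 32 libraries. The part of muscle in the Pvalb values was not tested.

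Slc12a3 encodes NCC itself. Its levels in males were 430.4, 362, 373 and 428 CPM at Day 0, against 149, 222, 252 and 376 at Day 3. In females they were 577, 653, 455 and 614 CPM at Day 0, and 209.7, 573, 209.9 and 209 at Day 3. Both sexes had 1 Day 3 mouse within the range of Day 0, and 3 below it. The fall over both sexes was -0.83 ± 0.22 (log2, adjusted p = 0.0089), and -0.54 ± 0.20 at Day 2 did not pass (adjusted p = 0.052). With the length offset the values were -1.25 ± 0.22 (adjusted p = 0.00105) and -0.87 ± 0.20 (adjusted p = 0.0069), so that Day 2 then passed. Day 2 also passed by DESeq2 (adjusted p = 0.031), by limma voom (0.047), with the replicate block (0.034), with a minimum of 10 counts in every library (0.046), and without male mouse 1 (-0.63 ± 0.20, adjusted p = 0.030) or female mouse 1 of that day (-0.61 ± 0.21, adjusted p = 0.038).

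The regulators of NCC were next. Wnk4 encodes the kinase that starts the signal through SPAK to the cotransporter, and Klhl3 encodes the adaptor through which WNK kinases are marked for degradation. Wnk4 had means of 167 ± 48.1 CPM in males and 231 ± 76.6 in females at Day 0 (SD, n = 4), and 126 ± 7.70 and 139.8 ± 39.1 at Day 3. Its change was -0.59 ± 0.18 (adjusted p = 0.015), but -0.25 ± 0.14 (adjusted p = 0.18) without the 3 short-gene libraries, which held 238, 276 and 304 CPM, the highest Day 0 values of each sex. Klhl3 had 35.8 ± 8.73 CPM at Day 0 and 25.5 ± 2.67 at Day 3 in males, and 57.7 ± 6.51 and 38.9 ± 17.3 in females, a change of -0.55 ± 0.17 (adjusted p = 0.016).

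Wnk1 did not pass at Day 3, with -0.09 ± 0.12 (adjusted p = 0.55), and ranged from 162 to 289.6 CPM over the Day 3 mice. Wnk1 is the longest of the genes, at 22825 bases in the table. With the length offset its change was -0.68 ± 0.12 (adjusted p = 0.0013), so its call rests on how gene length is treated. The counts are per gene, and the kidney's short WNK1 form, which lacks the kinase domain, was not counted apart from the long form. Wnk4 shares 306 exon bases with Gm11615 on the opposite strand, and whether the counting used strand is not given in the sources used here.

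Kcnj16 did not pass at Day 3, where it was at 394, 388, 378 and 384 CPM in males and 397, 394, 371 and 404 in females, against 302 to 588 at Day 0. Its change was 0.02 ± 0.13 (log2, adjusted p = 0.93), and the mice at Day 3 lay closer to each other than in any other group, with an SD of 6.93 CPM in males and 14.2 in females.

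**Figure D2:**
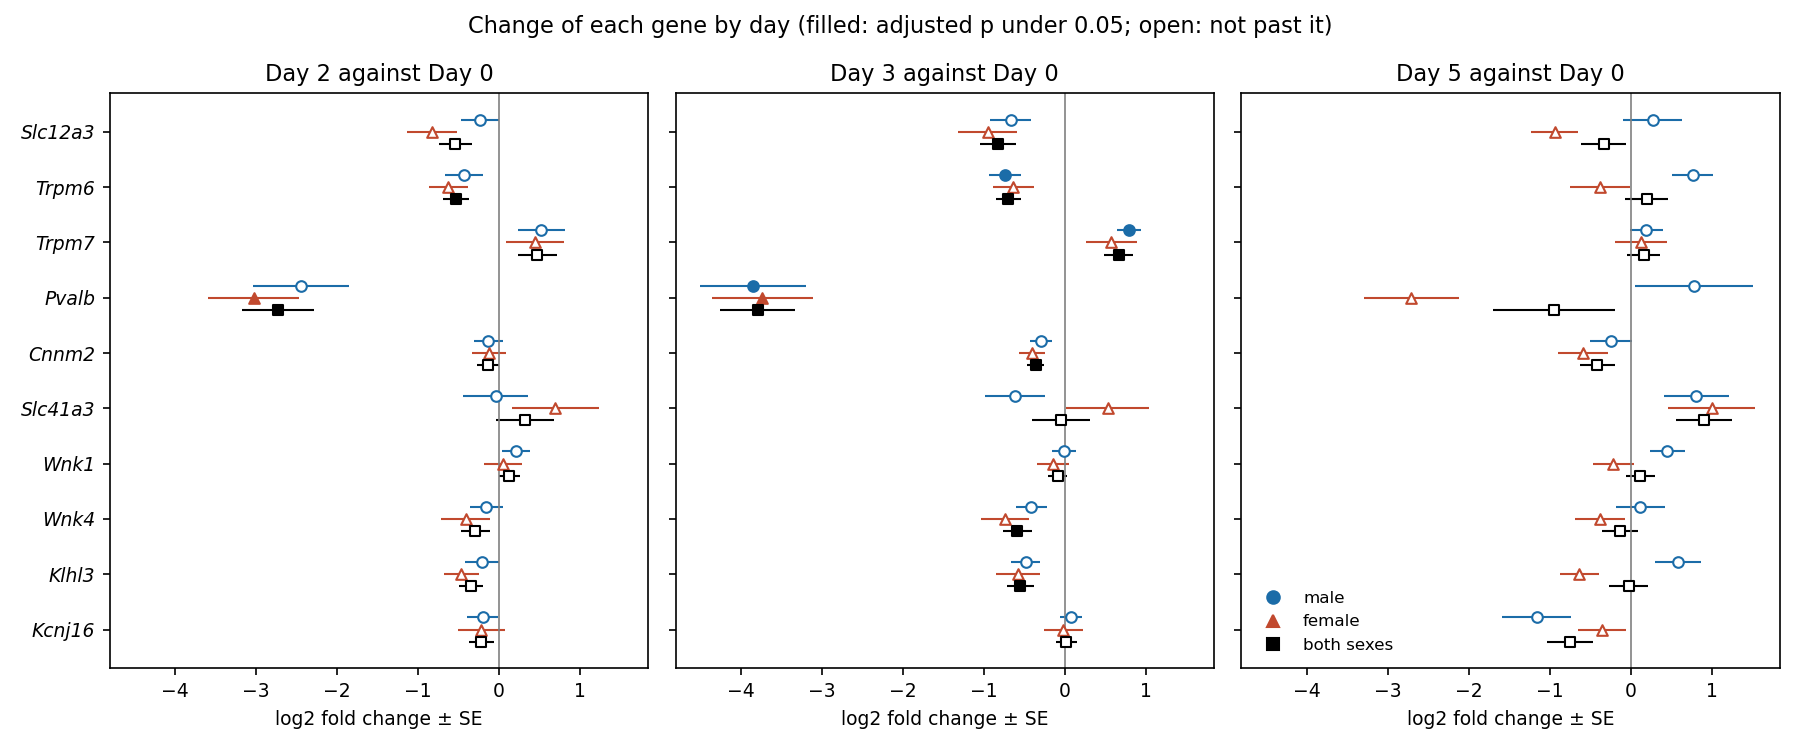
Log2 fold change of each gene against Day 0, with its SE, at Day 2, Day 3 and Day 5, in males, females and both sexes together. Filled symbols passed an adjusted p of 0.05. At Day 3, 7 genes are filled for both sexes together, Trpm7 the 1 filled symbol to the right of 0, and at Day 5 none is filled.

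Among the magnesium genes, Trpm6 and Trpm7 encode related channel-kinases, the first restricted mainly to kidney and gut and the second found in most cells, and their subunits assemble together. Trpm6 in males was at 8.36, 7.40, 9.63 and 12.2 CPM at Day 0 and at 4.92, 5.06, 6.69 and 5.87 at Day 3. In females it was at 9.73, 16.2, 10.7 and 10.7 CPM at Day 0 and at 6.52, 10.4, 6.05 and 7.87 at Day 3. The male groups did not overlap, and 1 female Day 3 mouse lay inside the female Day 0 range. Trpm6 fell by 0.54 ± 0.16 on the log2 scale at Day 2 (adjusted p = 0.019) and by 0.70 ± 0.16 at Day 3 (adjusted p = 0.0026). Without the 3 short-gene libraries Day 2 was at -0.43 ± 0.16 (adjusted p = 0.077), and Day 3 at -0.60 ± 0.16 (adjusted p = 0.013).

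Trpm7 moved the other way. In males it was at 63.3, 62.0, 43.1 and 62.7 CPM at Day 0 and at 88.0, 101, 101 and 109.8 at Day 3. In females it was at 41.8, 29.7, 32.5 and 83.6 CPM at Day 0 and at 69.0, 81.5, 64.6 and 66.5 at Day 3, so the female groups overlapped through 1 Day 0 mouse and the male groups did not overlap. The rise over both sexes was 0.67 ± 0.18 (adjusted p = 0.0085), and at Day 2 the value was 0.47 ± 0.24 (adjusted p = 0.14).

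The level of Trpm7, a gene of 11315 bases, followed the balance of short and long genes closely within Day 0. It was 83.6 CPM in the library where short genes stood lowest (-0.28), 62.0 to 63.3 CPM at a balance of 0.10 to 0.26, 41.8 CPM at 0.81, and 29.7 to 43.1 CPM above 1. With the length offset the Day 3 rise was 0.31 ± 0.11 (adjusted p = 0.034), and without the 3 libraries it was 0.44 ± 0.15 (adjusted p = 0.0355). The direction and the call held under both, at a smaller size. The Day 0 libraries that remained were at a balance of -0.28 to 0.81, against -0.64 to -0.07 at Day 3. Leaving the 3 out thus does not remove the difference in balance. Without female Day 0 mouse 4, the library at 83.6 CPM, Trpm7 also passed at Day 2 over both sexes (0.68 ± 0.21, adjusted p = 0.019) and within females at Day 2 (0.88 ± 0.28, adjusted p = 0.039) and Day 3 (1.01 ± 0.16, adjusted p = 0.0025). That library had a balance of -0.28, against 0.81 to 1.34 in the other Day 0 females. Leaving it out therefore widens the difference in balance between Day 0 and the later days, here and wherever it is left out below.

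**Figure D3:**
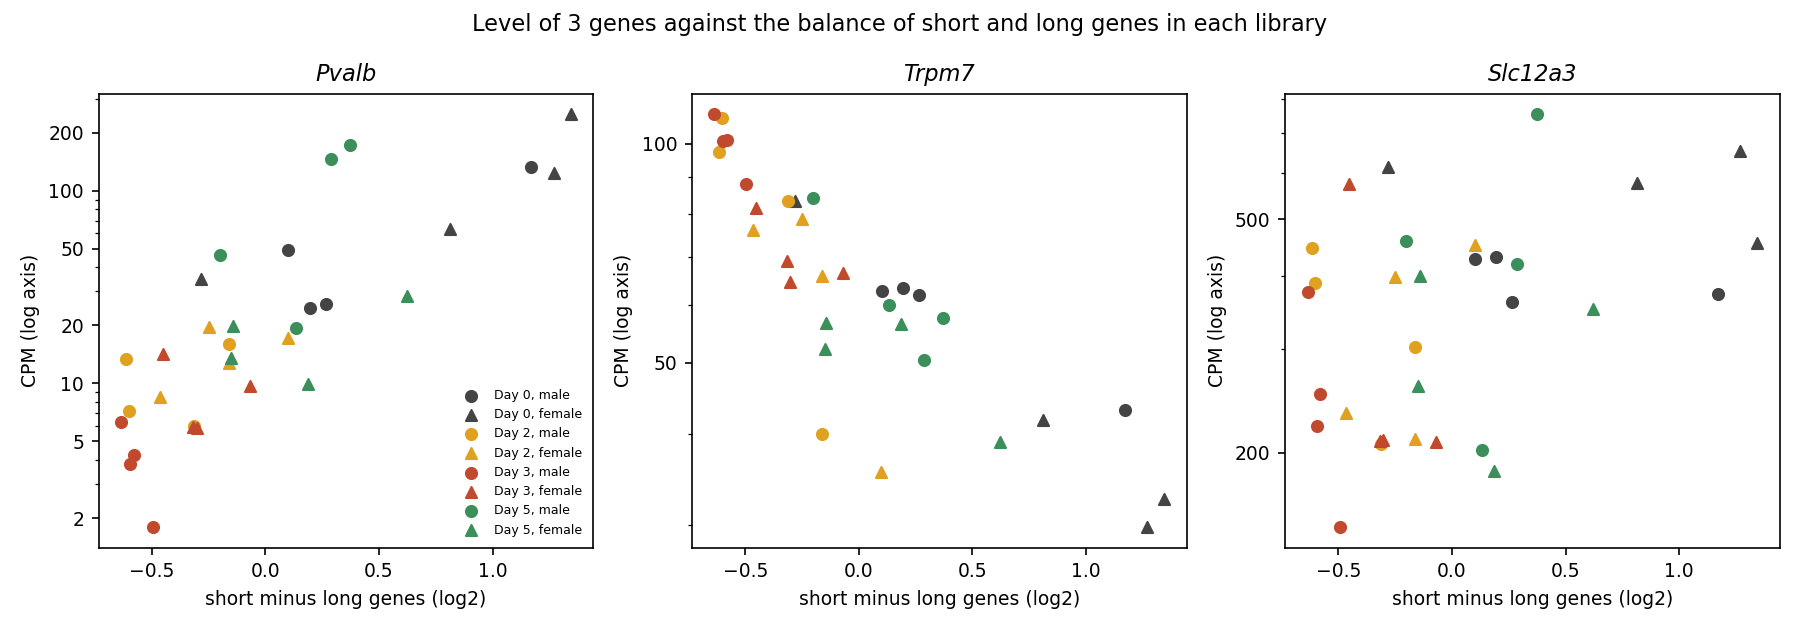
CPM (log axis) of Pvalb, Trpm7 and Slc12a3 in each library against the median log2 deviation of short genes minus that of long genes. Colours are days, circles males and triangles females. Pvalb runs up and Trpm7 runs down along this balance, and Day 0 libraries lie furthest to the right, up to 1.34.

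Cnnm2, which encodes a basolateral protein needed for magnesium transport, fell by 0.36 ± 0.10 at Day 3 (adjusted p = 0.010). Males had 35.3 ± 5.93 CPM at Day 0 and 28.8 ± 2.12 at Day 3, and females 37.8 ± 4.89 and 28.9 ± 4.10. Its fall did not pass in a single fit over all 8 groups (-0.34, adjusted p = 0.11). Slc41a3 encodes a magnesium transporter of the same segment and had few reads, with 11 to 253 counts on Days 0 to 3. It was at -0.05 ± 0.36 at Day 3 over both sexes (adjusted p = 0.92).

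Within a library, the ratio of 2 counts does not depend on the scaling of that library. Ratios were compared by a two-sided exact permutation test of the day labels within each sex (4900 arrangements, 9 tests adjusted together). The log2 ratio of Trpm6 to Trpm7 had a mean of -2.62 ± 0.43 in males and -1.88 ± 0.88 in females at Day 0 (SD, n = 4), and of -4.15 ± 0.17 and -3.22 ± 0.23 at Day 3. Its change was -0.99 at Day 2 (exact permutation, adjusted p = 0.025) and -1.43 at Day 3 (adjusted p = 0.0018). Every Day 3 mouse lay below every Day 0 mouse of its sex. Without the 3 short-gene libraries the change was -0.59 at Day 2 (exact permutation, adjusted p = 0.21) and -1.03 at Day 3 (adjusted p = 0.0086), and the Day 2 result therefore rests on them. Without female Day 2 mouse 2 the Day 2 change was -0.91 (exact permutation, adjusted p = 0.053).

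Slc12a1 encodes NKCC2, the furosemide-sensitive cotransporter of the neighbouring thick ascending limb. The log2 ratio of Slc12a3 to Slc12a1 went from 0.30 ± 1.19 in males and 0.62 ± 1.002 in females at Day 0 to -1.61 ± 0.34 and -1.58 ± 0.59 at Day 3. It changed by -1.49 at Day 2 (exact permutation, adjusted p = 0.016) and by -2.05 at Day 3 (adjusted p = 0.0018). Without the 3 short-gene libraries it was -1.71 at Day 2 (exact permutation, adjusted p = 0.051) and -2.28 at Day 3 (adjusted p = 0.0086). Part of the Day 0 spread came from Slc12a1, which was at 104.9 and 151.1 CPM in mouse 4 of each sex and at 335 to 574 in the other Day 0 mice, and the ratio was 2.03 and 2.02 in these 2 mice. With either of them left out, or any other single library, the Day 3 change stayed between -2.20 and -1.77 (adjusted p up to 0.0037). Slc12a1 itself was at 0.96 ± 0.32 (log2, adjusted p = 0.027) at Day 3, but at 0.72 (adjusted p = 0.10) with the length offset and 1.01 (adjusted p = 0.079) without the 3 short-gene libraries. The ratio of Wnk4 to Wnk1 changed by -0.37, -0.46 and -0.23 at Days 2, 3 and 5, and none passed (exact permutation, adjusted p = 0.20, 0.064 and 0.39). At Day 3 it passed without female Day 0 mouse 4 (-0.62, exact permutation, adjusted p = 0.0049) or male Day 0 mouse 4 (-0.53, adjusted p = 0.037), and at Day 2 without the former (-0.53, adjusted p = 0.044). Without the 3 short-gene libraries it was at -0.10 at Day 2 and -0.18 at Day 3 (exact permutation, adjusted p = 0.86 and 0.57). At Day 5 the Trpm6 to Trpm7 ratio stood at -0.08 from Day 0 (exact permutation, adjusted p = 0.83) and the Slc12a3 to Slc12a1 ratio at -0.60 (adjusted p = 0.30). Within each sex, Trpm6 to Trpm7 was at 0.57 in males and -0.74 in females (exact permutation, adjusted p = 0.26 and 0.37), and Slc12a3 to Slc12a1 at 0.09 and -1.29 (adjusted p = 0.91 and 0.086). The difference between the sexes in these ratios was not tested.

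**Figure D4:**
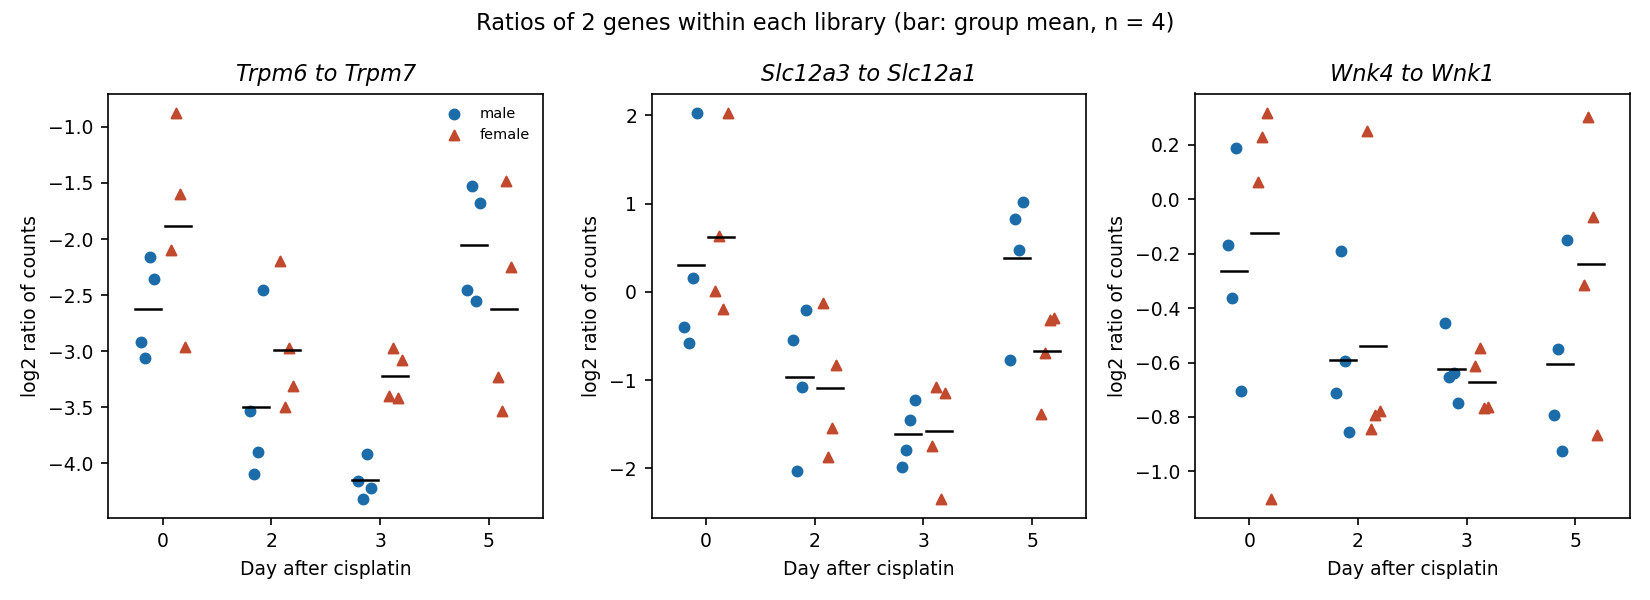
Log2 ratio of the counts of 2 genes in each library, by day after cisplatin, for Trpm6 to Trpm7, Slc12a3 to Slc12a1 and Wnk4 to Wnk1. Circles are males, triangles females and bars means of 4 mice. The first 2 ratios are lowest at Day 3, with means of -4.15 and -3.22 for Trpm6 to Trpm7 in males and females.

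The second question was whether the sexes differed. Within males, 3 of the 10 genes were called at Day 3, against 24.5% of genes in either direction, 13.1% lower and 11.4% higher. The count is near the share over all genes, so it is no result about the 10. Pvalb (-3.86 ± 0.65, adjusted p = 0.0091) and Trpm6 (-0.74 ± 0.20, adjusted p = 0.033) fell and Trpm7 rose (0.79 ± 0.14, adjusted p = 0.011). Trpm6 lost its call without any 1 of the Day 3 males (-0.83 to -0.68, adjusted p = 0.070 to 0.096), and Trpm7 with the length offset (0.34, adjusted p = 0.064). Without Day 0 mouse 3 of the males Klhl3 (-0.62 ± 0.13, adjusted p = 0.0061) and Slc41a3 (-0.85 ± 0.28, adjusted p = 0.041) passed, and without Day 3 mouse 4 so did Slc12a3 (-0.93 ± 0.21, adjusted p = 0.042). In females Slc12a3 (-1.47 ± 0.21, adjusted p = 0.016) and Klhl3 (-0.94 ± 0.17, adjusted p = 0.031) passed at Day 3 without mouse 2, and Wnk4 without Day 0 mouse 4 (-0.93 ± 0.23, adjusted p = 0.013). None was called in males at Day 2, against 3.16% of all genes, with 1 gene at an unadjusted p under 0.05 (4654 of 16051 over all genes), 1 called by DESeq2 and 3 by limma voom. Pvalb passed there without Day 0 mouse 3 (-1.65 ± 0.37, adjusted p = 0.026) or mouse 4 (-2.52 ± 0.65, adjusted p = 0.043). Within females edgeR called Pvalb alone, at Day 2 (-3.03 ± 0.56, adjusted p = 0.035) and Day 3 (-3.74 ± 0.62, adjusted p = 0.046), against 1.93% and 5.54% of genes. In females DESeq2 called 1 gene at each of these days, and limma voom called 6 at Day 2 and 7 at Day 3. The edgeR calls are near the threshold. At Day 2 leaving out any Day 2 mouse or Day 0 mouse 1 or 2 gave an adjusted p of 0.053 to 0.15, and at Day 3 leaving out Day 0 mouse 1, 2 or 3 or Day 3 mouse 1, 3 or 4 gave 0.071 to 0.17, at log2 values of -3.20 to -2.83 and -3.92 to -3.07. In females Pvalb lost its call at Day 3 without the 2 short-gene libraries of that sex (-2.47 ± 0.39, adjusted p = 0.16). At Day 3 Slc12a3 was at -0.67 ± 0.25 in males and -0.95 ± 0.36 in females (adjusted p = 0.082 and 0.12), and Slc41a3 was at -0.62 ± 0.37 and 0.53 ± 0.51, of opposite sign (adjusted p = 0.24 and 0.49).

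The test of the difference itself, a sex by day interaction, called 0 of the 10 genes at each day by edgeR, against 0% of genes at Day 2, 0.0114% at Day 3 and 0.243% at Day 5. At an unadjusted p under 0.05 it had 0, 0 and 4 of the 10, and over all genes 738 of 17467, 1252 of 17598 and 2568 of 16907. DESeq2 called 0, 0 and 1, and limma voom with sample weights called 1, 1 and 8, so the result at Day 5 depends on the test. The largest of these was Pvalb at Day 5, at 3.49 ± 1.03 (log2, males minus females, adjusted p = 0.13). Males and females were compared directly as well. At Day 0 and Day 2 none of the 10 genes was called by edgeR, against 0.449% and 1.47% of genes, with 2 and 1 at an unadjusted p under 0.05 (1289 of 16042 and 2485 of 16608 over all genes). DESeq2 called none at either day, and limma voom called 6 at Day 0 and none at Day 2.

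At Day 3, 2 genes differed between the sexes, against 21.3% of all genes. Trpm7 was higher in males by 0.48 ± 0.10 (adjusted p = 0.0089), and its 4 male values (88.0 to 109.8 CPM) lay above its 4 female values (64.6 to 81.5 CPM). Short genes stood lower in those male libraries (-0.64 to -0.49) than in the female ones (-0.45 to -0.07). Slc41a3 was lower in males by 0.86 ± 0.17 on the log2 scale (adjusted p = 0.0076), with 2.50, 2.35, 2.32 and 2.57 CPM in males and 3.15, 4.62, 5.13 and 4.45 CPM in females, from 60 to 66 and 127 to 228 counts. Each passed in 17 of 18 settings, the length offset among them, and over all 18 Trpm7 was at 0.33 to 0.57. Neither passed in a single fit over all 8 groups (adjusted p = 0.59 for Trpm7 and 0.50 for Slc41a3). Pvalb was lower in males by DESeq2 (-1.16, adjusted p = 0.011) and with the replicate block (-1.18, adjusted p = 0.035), and Wnk1 with the length offset (-0.45, adjusted p = 0.036).

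At Day 5 the libraries spread out. No gene was called in males (19.2% of all genes), in females (0.258%) or between the sexes (0.276%) by edgeR. At an unadjusted p under 0.05 there were 2, 3 and 3 of the 10, and over all genes 5402 of 14969, 2548 of 16260 and 3094 of 15237. DESeq2 called 3, 2 and 1, and limma voom called 6, 2 and 3. Pvalb was at 46.2, 147, 19.5 and 174 CPM in males and at 9.88, 13.6, 28.4 and 19.8 CPM in females. Its log2 fold change from Day 0 was 0.78 ± 0.73 (adjusted p = 0.47) in males and -2.71 ± 0.59 (adjusted p = 0.11) in females. Of 20 settings, Pvalb was called in 1 in males (-0.25 to 2.09 over all 20) and in 4 in females (-3.02 to -1.46). All 4 females thus lay below the lowest Day 0 female, at 34.9 CPM, while 2 of the males exceeded the highest Day 0 male. Those libraries had 78.9% and 79.7% of their counts from the mitochondrial genome. Without female Day 0 mouse 4, the lowest, the female value was -3.01 ± 0.50 (adjusted p = 0.016). Between the sexes Pvalb was at 2.48 ± 0.64 (males minus females, adjusted p = 0.12), and without the library labelled male Day 5 mouse 1 at 2.77 ± 0.70 (adjusted p = 0.034).

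Slc12a3 at Day 5 was at 458, 419, 202 and 755 CPM in males and at 186, 259, 352 and 400.3 CPM in females, with changes of 0.27 ± 0.37 (adjusted p = 0.63) and -0.94 ± 0.30 (adjusted p = 0.20). It was called in 0 of 20 settings in males and in 2 of 20 in females (-1.16 to -0.75 over all 20). Trpm6 was at 15.4, 17.5, 10.2 and 18.0 CPM in males, 3 of them above every Day 0 male, and those were the library with Xist against its label and mice 2 and 4, at 78.9% and 79.7% mitochondrial counts. In females it was at 6.02, 4.45, 13.9 and 11.9 CPM. The counts behind these were low, 63 to 275 in males and 37 to 406 in females. Its change in males was 0.76 ± 0.25 (adjusted p = 0.058) by edgeR and 0.77 ± 0.28 (adjusted p = 0.027) by DESeq2. Without male Day 0 mouse 4 Trpm6 (0.90 ± 0.26, adjusted p = 0.041) and Slc41a3 (1.23 ± 0.36, adjusted p = 0.041) passed in males.

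Kcnj16 at Day 5 was at 330.5, 116, 79.6 and 105 CPM in males and at 333, 209.6, 301 and 387 CPM in females. The change in males was -1.16 ± 0.43 (adjusted p = 0.084) by edgeR, and Kcnj16 was called there in 4 of 20 settings. The 3 low males were the 3 with 78.9% to 79.8% of counts from the mitochondrial genome, and the lowest female was the 1 female library at 77.9%. The male mouse at 330.5 CPM was the library labelled male whose Xist count went against its label, and without it the change was -1.79 ± 0.24 (adjusted p = 0.0014). Kcnj16 then also passed over both sexes (-0.997 ± 0.28, adjusted p = 0.027), between males and females (-1.50 ± 0.26, adjusted p = 0.0025) and in the interaction (-1.47 ± 0.39, adjusted p = 0.030). With the 3 male libraries over 50% mitochondrial left out, that same mouse was the 1 male Day 5 library remaining, and its value was -0.07 from Day 0, which is the level of 1 mouse and no test of the group. With mitochondrial genes removed before scaling it was -1.18 ± 0.43 (adjusted p = 0.083). Kcnj10, which encodes the partner subunit of the same channel, was at 64.5 ± 13.7 CPM in males at Day 5 against 41.8 ± 4.07 at Day 0 (0.68 ± 0.20, adjusted p = 0.040). The part of RNA composition in the Kcnj16 values was not tested.

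The other genes of the pathway were read from lists. Among 6 further markers of the segment, 3 fell and 2 rose at Day 3 over both sexes, with a median of -0.80 and beside 22.6% lower and 16.5% higher of all genes. Calb1, the calcium buffer calbindin of the later part of the segment, fell by 1.70 ± 0.24 (adjusted p = 0.00019). Male means were 285 ± 27.6 CPM at Day 0 and 60.9 ± 15.7 at Day 3, and female means 349 ± 96.4 and 158 ± 69.7. Of the list genes here and below, Calb1, Egf, Stk39, Kcnj10 and Slc12a1 were named whatever their values. S100g, Fxyd2 and Wnk2 were named because they passed on adjusted p and log2 fold change in a comparison with Day 0 within a sex. They were thus also selected on their values. The other list genes were chosen after their values were seen. S100g, a calcium-binding protein gene of only 480 bases, was at -1.96 ± 0.35 (adjusted p = 0.00063), and the transcription factor gene Emx1 was at -1.21 ± 0.14 (adjusted p = 0.00013). Trpv5, the calcium channel of the distal nephron, rose by 1.07 ± 0.20 (adjusted p = 0.0011) and Tfap2b rose by 0.55 ± 0.14 (adjusted p = 0.0063). In males alone none of the 6 was called higher at Day 3 and 3 were lower. With the length offset Tfap2b, of 6338 bases, was at 0.28 ± 0.18 (adjusted p = 0.24), and Trpv5 at 1.11 ± 0.19 (adjusted p = 0.00086). Calb1, S100g and Emx1 passed with the offset and without the 3 short-gene libraries, Calb1 at -1.87 and -1.63 and S100g at -1.41 and -1.10.

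Of 20 further genes of magnesium handling, 18 were tested at Day 3 over both sexes, and 4 rose and 3 fell with a median of 0.17. That count is near the 39.1% called of all genes, so it is no result about the list. Fxyd2, the gamma subunit of the sodium pump, fell by 1.71 ± 0.22 (adjusted p = 0.00017), from 3006 ± 1213 to 1084 ± 80.1 CPM in males. Pcbd1, with 817 bases in the table, fell by 1.40 ± 0.17 (adjusted p = 0.00014) and Magt1 by 1.38 ± 0.31 (adjusted p = 0.0031). Slc41a1, a sodium-magnesium exchanger gene, rose by 1.09 ± 0.18 (adjusted p = 0.00048). It had 14.1 ± 3.34 and 25.6 ± 3.74 CPM at Days 0 and 3 in males, and 12.7 ± 3.48 and 32.8 ± 9.38 in females. Egfr, the receptor through which EGF acts on TRPM6, rose by 0.61 ± 0.14 (adjusted p = 0.0034), as did Nipa2 (0.58 ± 0.18, adjusted p = 0.018) and Arl15 (0.38 ± 0.12, adjusted p = 0.018). With the length offset Egfr was at 0.23 (adjusted p = 0.12) and Nipa2 at 0.34 (adjusted p = 0.078), and without the 3 short-gene libraries Nipa2 was at 0.36 (adjusted p = 0.063) and Magt1 at -0.55 (adjusted p = 0.0014). Egf itself, made by the distal nephron, was at -0.20 ± 0.29 (adjusted p = 0.61).

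Of 15 partners of the WNK and SPAK pathway, 4 rose and 2 fell at Day 3 over both sexes, with a median of 0.15, again near the 39.1% called of all genes. Oxsr1, the kinase related to SPAK, rose by 0.65 ± 0.15 (adjusted p = 0.0039), together with Atp1b1 (1.05 ± 0.36, adjusted p = 0.029), Nedd4l (0.23 ± 0.08, adjusted p = 0.040) and Cab39 (0.34 ± 0.12, adjusted p = 0.042). Bsnd was among those that fell (-0.53 ± 0.18, adjusted p = 0.027). With the length offset Nedd4l turned to -0.27 (adjusted p = 0.14), and Cab39 (0.10, adjusted p = 0.40) and Bsnd (-0.42, adjusted p = 0.082) did not pass. Without the 3 libraries Cab39 (0.16, adjusted p = 0.13) and Bsnd (-0.34, adjusted p = 0.18) did not pass, and Atp1b1 was at 0.54 (adjusted p = 0.015). Stk39, which encodes SPAK, was at 0.33 ± 0.14 (adjusted p = 0.061) at Day 3 and in males at Day 5 at 1.08 ± 0.24 (adjusted p = 0.017), while Wnk2 was at -2.00 ± 0.54 (adjusted p = 0.033) there.

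Markers of other cells moved too. The 3 erythroid genes summed to 365 to 2402 CPM over the Day 0 libraries and to 0.811 to 72.7 CPM at Day 3, and all 3 fell over both sexes. The adipocyte list, 4 genes, summed to 451 to 2264 CPM at Day 0 and to 231 to 638 CPM at Day 3, with 3 of 4 lower, and 3 of 4 podocyte genes rose, beside 22.6% lower and 16.5% higher of all genes at Day 3. For the thick ascending limb 1 of 6 genes fell and 1 rose. The 8 proximal tubule genes, of the most abundant kidney cell, summed to a median of 37846 CPM at Day 0 and 21618 at Day 3 in males, and of 26102 and 6898 in females. Of these 8, 2 fell over both sexes at Day 3, and their median log2 fold change was 0.04. In males at Day 5, where the 10 genes spread out, that sum had a median of 4802 CPM with 3 of 8 genes lower. There 4 of 6 intercalated cell genes were higher. Over all genes 1534 of 14969 were lower and 1344 higher, 19.2% in either direction. The part of these cells in the values of the 10 genes was not tested.

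The 5 protein-coding genes whose log2 CPM was most like that of Slc12a3 over the 32 libraries were Sfrp1 (Pearson r = 0.87), Lrrc52 (0.84), Cabcoco1 (0.80), Syt9 (0.79) and Tmem86a (0.78). Over the 24 libraries without Day 5 the values were 0.88, 0.85, 0.79, 0.77 and 0.72. Among the 10 genes Slc12a3 was most like Klhl3 (0.84). Trpm7 ran against Pvalb (-0.65) and Wnk4 (-0.64). These are descriptions over libraries that share day, depth and length balance.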

How the data were processed

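Kidney RNA of 32 mice was sequenced as paired 150 bp reads. The authors deposited raw counts per gene and FPKM, and the submitters' processing notes name HTSeq and DESeq2. The deposited FPKM values divide the counts by gene length and by a library size that the authors had rescaled per library. The study's methods give GRCm38 and the processing notes GRCm39. Of 54409 genes shared with GENCODE M21 (GRCm38), 98.8% had the same chromosome and start, so GRCm38 was used. The aligner and the strand setting are not given in the sources used here.

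Counts were tested with edgeR 4.0.16 (TMM, filterByExpr, robust quasi-likelihood) in R 4.3.3, only the groups compared entering each fit, with sex as a covariate when both sexes were pooled. The SE is the absolute log2 fold change divided by the square root of F. A gene was called at an adjusted p under 0.05, and a log2 fold change also past 1.5 was an alternative (the study's methods give 1.5 with no log base). Ratios used a pseudocount of 0.5. DESeq2 1.42.0, limma 3.58.1 (voom, quality weights), other scalings and filters, a fit over all groups and leaving out each library were tried. The scripts were tested on simulated data.

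The mice, called replicates by number, were treated as unpaired. In 0 of 28 pairs of groups did every same-numbered pair of libraries deviate together (r over 0.1). This rule needs every number, so it cannot exclude a likeness of some. Between male and female Day 0, r was 0.27, -0.09, 0.44 and 0.49 for mice 1, 2, 3 and 4. No 2 libraries of a group agreed within sampling noise. The 10 genes and the lists were chosen with earlier results of these data known. Named beyond the 10 were S100g, Fxyd2 and Wnk2, which passed both thresholds in a comparison of a day with Day 0 within a sex. Calb1 did so as well, and the other list genes that did so were not named. S100g, Fxyd2 and Wnk2 were thus selected on their values. Also named were Slc12a1, Kcnj10, Stk39, Egf and Calb1 whatever their values, the 5 genes most like Slc12a3 and the 8 muscle genes. Xist, Y-linked and mitochondrial genes served as checks of the libraries. The other list genes named were chosen after their values were seen. Some list genes and motifs are not reported here.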

Additional observations from a re-analysis of the deposited data

Results flagged for a closer look

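In 104 groups of 4 values (10 genes and 3 ratios in 8 groups), 8 had 1 library far from the others, by a gap to the nearest above Dixon's 95% critical value for 4 samples. Chance flags about 1 in 20 groups. Female Day 3 mouse 2 stood high for Slc12a3 (573 CPM, others 209 to 209.9) and for Wnk4 (198 CPM, others 117 to 123). Female Day 0 mouse 2 was high for Trpm6 (16.2 CPM, others 9.73 to 10.7), and female Day 0 mouse 3 was low for Slc41a3 (0.54 CPM, others 3.67 to 3.88). Male Day 0 mouse 3 was low for Trpm7 (43.1 CPM, others 62.0 to 63.3). Female Day 2 mouse 1 was high for Slc41a3 (8.24 CPM, others 3.56 to 3.83) and for the log2 ratio of Wnk4 to Wnk1 (0.25, others -0.84 to -0.78). The library labelled male Day 5 mouse 1 was high for Kcnj16 (330.5 CPM, others 79.6 to 116). Of these 8, 3 were in the Day 0 libraries whose short genes stood high.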

How the results depend on the processing

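Over both sexes at Day 3, Slc12a3, Trpm6, Trpm7, Pvalb and Klhl3 passed in all 27 settings, and Cnnm2 and Wnk4 in 26. The count called there was 7, against 8 with the length offset and 6 in the fit over all 8 groups and without the 3 short-gene libraries. The counts of the 10 genes called elsewhere moved too, and the cause was not tested. limma voom gave 3, 8 and 6 in males and 6, 7 and 2 in females at Days 2, 3 and 5, 6 and 1 over both sexes at Days 2 and 5, 6 and 3 between the sexes at Days 0 and 5, and 1, 1 and 8 for the interactions. DESeq2 gave 1, 5 and 3 in males, 2 in females at Day 5, 3 and 2 over both sexes at Days 2 and 5, 1 between the sexes at Day 5 and 1 for the Day 5 interaction. The fit over all 8 groups gave 1 in males at Days 2 and 5, 2 and 1 in females at Days 3 and 5, 3 over both sexes at Day 5, 0 and 2 between the sexes at Days 3 and 5 and 1 for the Day 5 interaction. In males at Day 3 that fit and no filter each gave 2, and between the sexes at Day 3 DESeq2, the replicate block and the length offset each gave 3. A minimum of 10 counts gave 1 in males at Days 2 and 5 and 3 and 1 over both sexes at Days 2 and 5, and no filter gave 1 over both sexes at Day 2. With log2 fold changes also past 1.5 the counts were 1 in males at Day 3, 1 over both sexes at Days 2 and 3 and 0 between the sexes at Day 3.

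The replicate block gave 1 in males at Day 3, 0 in females at Days 2 and 3 and 3 and 1 over both sexes at Days 2 and 5, although the labels link the mice by number only. Of the settings added after seeing the data, the length offset gave 5 in males and 0 in females at Day 3, and 4 and 1 over both sexes at Days 2 and 5. Leaving out the 3 short-gene libraries gave 1 and 5 in males at Days 2 and 3, 0 in females at Day 3 and 1 over both sexes at Day 2, with log2 ratio changes at Day 2 of -0.59 for Trpm6 to Trpm7 and -1.71 for Slc12a3 to Slc12a1 that did not pass. Leaving out the Day 5 libraries over 50% mitochondrial left 1 male Day 5 library, assumed to vary like the others, so its counts are not given. Kcnj16 in males then went from -1.16 to -0.07.

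Without 1 library at a time the counts were 0 to 1, 2 to 5 and 0 to 2 in males, 0 to 2, 0 to 3 and 0 to 1 in females, 2 to 3, 7 to 7 and 0 to 1 over both sexes, 0, 0, 2 and 0 to 2 between the sexes by day, and 0, 0 and 0 to 1 for the interactions. Log2 ratio changes then were -1.17 to -0.82, -1.61 to -1.26 and -0.27 to 0.08 for Trpm6 to Trpm7, -1.65 to -1.20, -2.20 to -1.77 and -0.75 to -0.31 for Slc12a3 to Slc12a1, and -0.53 to -0.30, -0.62 to -0.38 and -0.39 to -0.12 for Wnk4 to Wnk1. Within males alone, where 70 splits allow no p under 0.029, they were -0.87 and -1.53 for Trpm6 to Trpm7 and -1.26 and -1.91 for Slc12a3 to Slc12a1 at Days 2 and 3. Within females they were -1.11 and -1.33, and -1.71 and -2.19. None of these 8 passed after adjustment. Trpm7 in the Day 5 interaction turned to -0.63 under limma voom (adjusted p = 0.0496) from 0.05. Of 3380 values of single genes under an alternative, 3233 kept their direction or stayed uncalled, 115 gained a call, 31 lost it and 1 reversed.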
